A study of Mus musculus with 20 samples.

Results

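The genes described here are 7 protein-coding genes of mouse chromosome 4, out of 49585 gene IDs in the count table. Macf1, Ndufs5, Akirin1, Rhbdl2, Mycbp and Rragc are neighbours in 1 stretch, and Zcchc17 lies 6.6 Mb further along. They were chosen by measured values: Ndufs5, Rhbdl2 and Zcchc17 were already known to be low in R245W tumours in these same counts, and the others were added for their position. Every R245W value of these 7 genes below is therefore a description. Where calls in R245W are given for them, they describe the choice and are no independent test. Calls in R245W for other genes come from the same fit. A processed copy of Ndufs5 on chromosome 16, BC002163, was added after its values had been seen.

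RNA sequencing of total RNA measured 18 primary osteosarcomas, which are malignant tumours of bone-forming cells, from mice whose strain is given as a mix of C57BL/6J and 129S/SvJae. Of these, 4 came from p53+/- mice, labelled p53 heterozygous (here p53 het). A further 6 came from p53R172H/+ mice, 3 from p53R245W/+ mice and 5 from p53R270H/+ mice, labelled p53 heterozygous mutant (here R172H, R245W and R270H). The other 2 libraries are a control and a p53 siRNA knockdown of cell line 14, a primary osteosarcoma line labelled p53R245/O with loss of heterozygosity. The age of the mice and the state of the wild-type allele in the tumours are not given in the sources used here, and each group of the line is 1 library.

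Ndufs5 encodes an accessory subunit of respiratory complex I, the NADH dehydrogenase of the inner mitochondrial membrane, and belongs to the twin CX9C proteins that are oxidised and trapped in the intermembrane space. Rhbdl2 encodes a rhomboid, a serine protease that cuts other membrane proteins within or beside their membrane-spanning segment and works at the cell surface. A processed pseudogene is a copy of a spliced messenger RNA that was written back into the genome elsewhere, so that reads from the copy and from its parent gene can look nearly the same.

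The coding sequence of Ndufs5 and the annotated copy BC002163 are shown to mark the few bases at which they differ. Reads were not examined, so which of these bases each library carries was not tested. Ndufs5 lies on the minus strand of GRCm38 at chr4:123712710-123718202, and BC002163 lies on the plus strand at chr16:42955631-42955949 and is named Ndufs5-ps in RefSeq. Over 319 compared bases, counted from the A of the start codon in the GENCODE M21 transcripts, they differed at 2 positions, T81C and A105G, with the Ndufs5 base first, and were 99.4% identical. Both changes are synonymous, in codons 27 and 35, and the bases after position 105 formed an identical run of 214. The first 180 coding bases follow, with the differing bases in capitals, from chr4:123715900-123716079 for Ndufs5, in an exon, and from chr16:42955631-42955810 for the copy.
Ndufs5: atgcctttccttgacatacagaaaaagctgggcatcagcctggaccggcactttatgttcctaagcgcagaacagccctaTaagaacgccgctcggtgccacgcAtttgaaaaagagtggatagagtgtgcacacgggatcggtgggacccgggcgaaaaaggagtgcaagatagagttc
BC002163: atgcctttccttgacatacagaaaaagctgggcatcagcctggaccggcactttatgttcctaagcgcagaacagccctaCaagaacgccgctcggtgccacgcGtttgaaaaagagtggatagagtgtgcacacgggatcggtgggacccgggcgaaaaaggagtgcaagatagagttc

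Counts assigned to Ndufs5 were almost lost in R245W tumours, while counts assigned to its copy were high there, and the sum of both was as high as in p53 het and R172H tumours. Levels are given as CPM, a gene's count scaled by the total count of its library. Ndufs5 stood at 19.1, 19.1, 18.6 and 7.91 in p53 het tumours 1 to 4. In the R245W tumours it stood at 0.669, 1.002 and 1.67. The R172H tumours ran from 18.7 to 23.6 with a median of 21.7, and the R270H tumours were at 15.7, 13.5, 11.8, 12.4 and 10.1 CPM. All 3 R245W tumours lay below the other 15, and p53 het 4 lay below all other tumours outside R245W. The fitted log2 fold of Ndufs5 was -3.97 ± 0.37 (standard error) for R245W against p53 het, and -4.22 without p53 het 4.

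The copy BC002163 ran the other way. It stood at 21.8, 21.2 and 18.4 CPM in the R245W tumours. In p53 het tumours it stood at 0.197, 0.0736, 0.307 and 12.7 CPM. The R172H tumours ran from 0.209 to 0.837 CPM with a median of 0.359, and the R270H tumours were at 0.284, 0.242, 0.262, 0 and 0.179. The library at 0 allows a level of up to 0.129 CPM, the value of 3 counts. All 3 R245W tumours lay above the other 15, and among those 15 only p53 het 4 was above 1 CPM. In all, 0.369% of the 20616 genes tested had all 3 R245W tumours above the 15 others.

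The share of the reads of both genes that was assigned to the copy was 97%, 95.5% and 91.7% in the R245W tumours. It was 61.6% in p53 het 4, with an exact 95% binomial interval of 57.5% to 65.5%. In the other 14 tumours it ran from 0% to 4.23%. The share therefore fell into 3 levels, with p53 het 4 alone in the middle. Intervals and limits here cover counting error only.

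Summed over gene and copy, the p53 het tumours stood at 19.2, 19.2, 19.0 and 20.6 CPM. The R245W tumours stood at 22.5, 22.2 and 20.04 CPM, and the R172H tumours ran from 19.0 to 23.8 with a median of 22.2. The R270H tumours stood at 15.98, 13.7, 12.1, 12.4 and 10.3 CPM. R245W thus overlapped R172H and lay above all R270H tumours, and p53 het 4 was no longer below its group. The summed log2 fold was 0.06 ± 0.16 for R245W against p53 het. It was 0.04 ± 0.15 for R245W against R172H and 0.76 ± 0.15 for R245W against R270H.

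**Figure D1:**
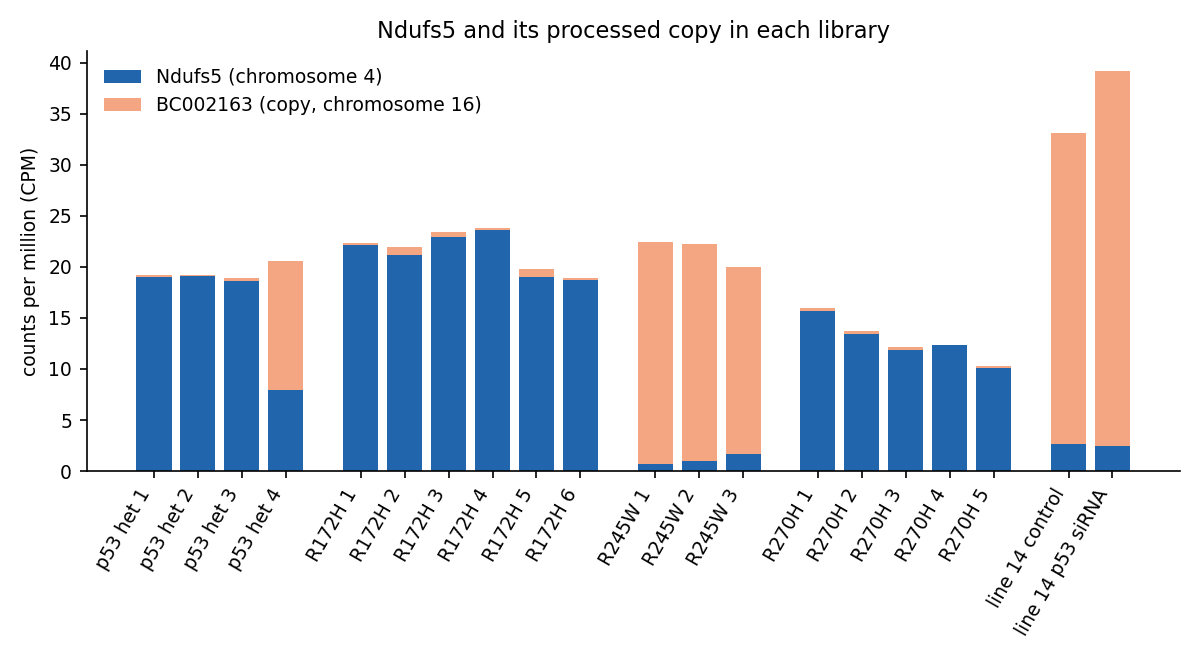
CPM (vertical axis) of Ndufs5 (blue) and of its copy BC002163 (orange), stacked, in each of the 18 tumours and both libraries of cell line 14; each bar is 1 library. The R245W bars are nearly all copy, p53 het 4 is mixed, the stack is as high in R245W as in p53 het and R172H, and the 5 R270H stacks, 10.3 to 15.98 CPM, are the lowest.

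Of all distinct stretches of 50 bases in the annotated Ndufs5 transcripts, 196 of 903 (21.7%) also occur in BC002163, and of stretches of 100 bases 12.7%. A read that lies wholly in such a stretch fits both places equally well. How the authors' counting treated reads that fit more than 1 place is not given in the sources used here, so the split between Ndufs5 and BC002163 is uncertain in every library. Whether the split reflects where the RNA was made was not tested.

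Rhbdl2 was also low in the R245W tumours. The R245W tumours stood at 4.90, 3.10 and 7.97 CPM. The p53 het tumours stood at 48.7, 32.9, 24.8 and 28.7 CPM. R172H ran from 14.3 to 42.7 with a median of 26.1, and R270H stood at 19.4, 39.9, 27.1, 30.4 and 26.6. All 3 R245W tumours lay below the other 15, with R172H 4 (14.3 CPM) the nearest of them. The log2 fold for R245W against p53 het was -2.77 ± 0.40, against R172H -2.31 ± 0.38 and against R270H -2.42 ± 0.38. Of its 50-base stretches, 5.94% occur in other annotated transcripts, most of them in 1 transcript that was not analysed here.

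Gm12904, a processed pseudogene that starts 8.2 kb past the end of Rhbdl2 (GRCm38 chr4:123838104-123839502), had no count at all in the 3 R245W tumours. It stood at 0.828, 0.626, 0.351 and 0.274 CPM in p53 het. It ran from 0.160 to 0.556 CPM in R172H and from 0.0747 to 0.678 in R270H, so that every tumour outside R245W had counts. Against 3 counts over the R245W group, p53 het was at least 11.8-fold higher, R172H at least 8.76-fold and R270H at least 6.31-fold. These are low counts, from 2 to 21 per library outside R245W. Gm12904 shares no 50-base stretch with any of the 7 genes.

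Akirin1 lies between Ndufs5 and Rhbdl2, 16.4 kb from the first and 37.5 kb from the second, and it kept most of its level. It encodes a nuclear protein that links transcription factors to chromatin remodelling. The R245W tumours stood at 57.5, 39.1 and 49.6 CPM. The p53 het tumours stood at 58.7, 57.3, 55.2 and 75.6 CPM. These groups overlapped, with R245W 2 the lowest of all 18 tumours, and the log2 fold was -0.42 ± 0.20. R172H ran from 45.7 to 88.4 CPM and overlapped R245W as well. R270H ran from 67.1 to 82.1 CPM, above all 3 R245W tumours, and the log2 fold of R245W against R270H was -0.58 ± 0.19. Akirin1-ps, a processed copy on chromosome 11, stood between 0.479 and 2.23 CPM over all 18 tumours, with no separation of R245W.

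Mycbp and Rragc, the next protein-coding members past Rhbdl2, kept most of their level. Mycbp, which encodes a small partner of the MYC protein, stood at 16.6, 18.6 and 18.4 CPM in R245W. In p53 het it stood at 17.4, 15.5, 22.7 and 19.4 CPM. All 4 genotypes overlapped, with a log2 fold of -0.15 ± 0.16 for R245W against p53 het. Rragc encodes a Rag GTPase, which brings mTORC1 to the lysosome when amino acids are plentiful. It stood at 74.2, 64.7 and 66.0 CPM in R245W. In p53 het it stood at 80.3, 76.8, 87.1 and 112.6 CPM. R245W lay below p53 het without overlap but overlapped R172H (66.1 to 89.2) and R270H (72.4 to 92.0), and the log2 fold against p53 het was -0.46 ± 0.15. Both genes have an overlapping transcript on the opposite strand, and since the strand setting of the counts is not given, reads of the pairs cannot be told apart.

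Macf1, a very large gene on the other side of Ndufs5 whose product joins actin filaments to microtubules, ends 28.4 kb before it. It stood at 943, 588 and 903 CPM in R245W. In p53 het it stood at 811, 746, 905 and 992 CPM. R172H ran from 766 to 1042 and R270H from 778 to 1245 CPM. R245W 2 was the lowest of all tumours and the other R245W libraries sat among the rest. The log2 fold was -0.18 ± 0.22, and -0.01 without R245W 2.

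Zcchc17, which encodes an RNA-binding zinc knuckle protein of the nucleolus, was moderately lower in R245W (GRCm38 chr4:130315383-130359943). The R245W tumours stood at 19.0, 18.3 and 20.8 CPM. In p53 het it stood at 29.1, 25.6, 42.2 and 40.05 CPM. R172H ran only from 25.5 to 27.99 CPM, with a median of 26.6, and R270H stood at 32.9, 32.1, 26.2, 34.5 and 29.7. All 3 R245W tumours lay below the other 15, but by a narrow gap of 20.8 to 25.5 CPM. The log2 fold against p53 het was -0.90 ± 0.16. Libraries whose titles carry a serial number are p53 het 1 and 2, R172H and R245W, and within these it was -0.66 ± 0.18, where Ndufs5 was at -4.26 and Rhbdl2 at -3.10. The end of Fabp3, its neighbour on the opposite strand, overlaps Zcchc17 and stood at a log2 fold of -0.37 ± 0.45.

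Without overlap, 4 of the 7 genes were lower in R245W than in p53 het (Ndufs5, Rhbdl2, Rragc and Zcchc17), as were 2.9% of all genes tested. Below all 15 other tumours lay 3 of the 7 (Ndufs5, Rhbdl2 and Zcchc17), beside 0.441% of all genes. With an adjusted p under 0.05 in edgeR's quasi-likelihood test, the same 3 passed for R245W against p53 het, beside 0.0728% of all genes (7 higher and 8 lower). The genes were chosen by this contrast, so these counts describe the choice. The loss of Ndufs5 and Rhbdl2 was 15.7-fold and 6.82-fold in the fit, where that of Zcchc17 was 1.86-fold. For Ndufs5 this covers only counts assigned to the gene itself, and the split between gene and copy is uncertain. With the copy added, the log2 fold was 0.06 ± 0.16.

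**Figure D2:**
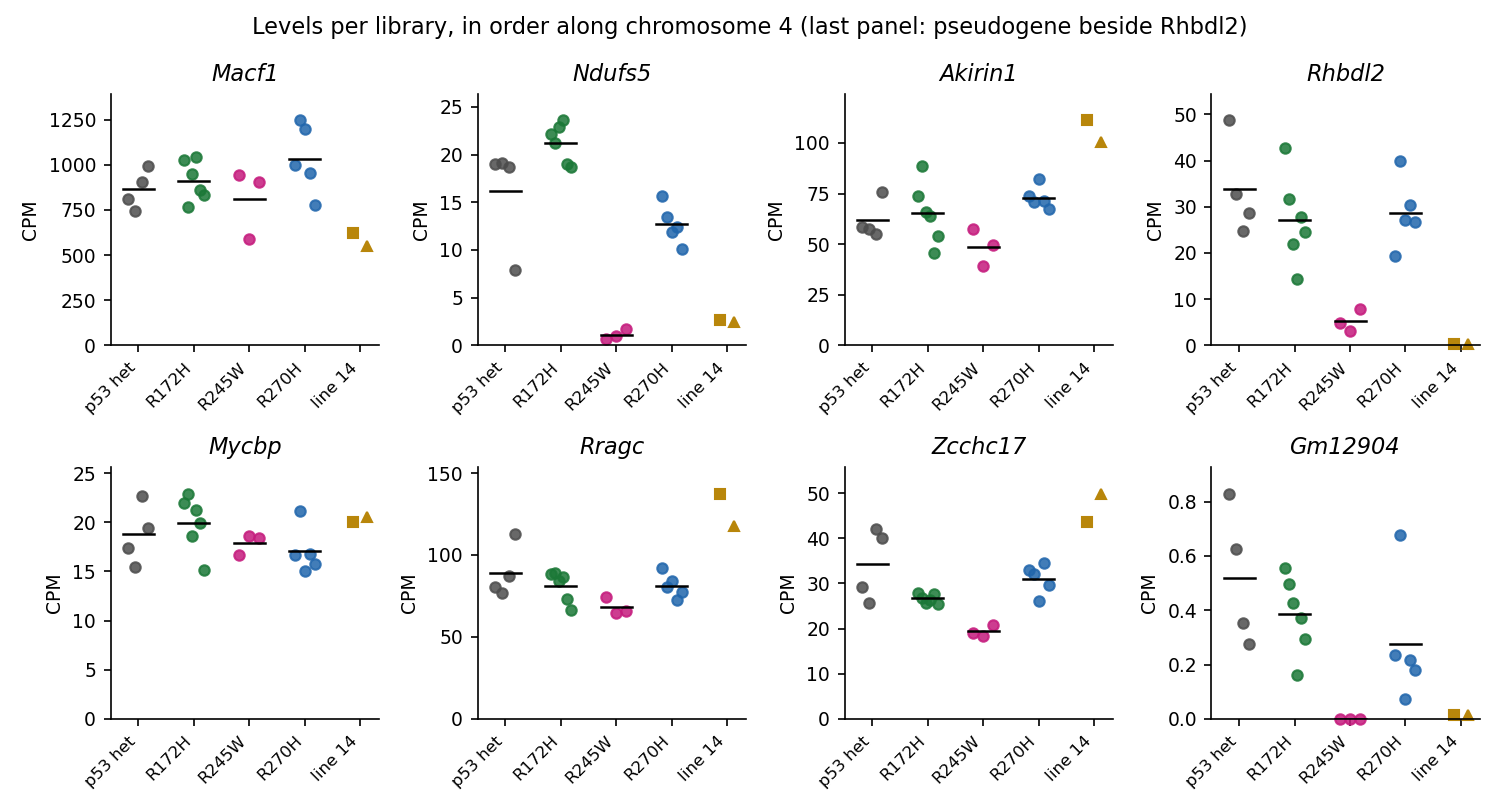
CPM (vertical axes, from 0) of the 7 genes in their order along chromosome 4 and of the pseudogene Gm12904, by genotype; each point is 1 library, black lines are group means, and for cell line 14 the square is the control and the triangle the p53 siRNA library. R245W lies apart from all other tumours for Ndufs5, Rhbdl2, Zcchc17 and Gm12904, overlaps every genotype for Mycbp, and for Akirin1 overlaps p53 het and R172H but lies below R270H.

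Per kilobase of annotated exon, p53 het levels ran from 6.40 ± 1.06 CPM per kb (SD, n = 4) for Mycbp and 7.51 ± 1.78 for Zcchc17 to 26.7 ± 4.84 for Rragc and 27.5 ± 3.43 for Macf1. Akirin1 stood at 17.9 ± 2.71 and Ndufs5 at 18.8 ± 6.42 CPM per kb, and Rhbdl2 lay between Zcchc17 and Akirin1. In this order the steps from Zcchc17 to Rhbdl2, from Rhbdl2 to Akirin1 and from Ndufs5 to Rragc were larger than the SD of either gene. The other steps were smaller than the SD of at least 1 of the pair. In R245W, Ndufs5 (1.29 ± 0.593, n = 3) and Rhbdl2 (1.73 ± 0.803) were the lowest of the 7 and lay within each other's spread.

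Flanking genes show how far the low levels reached. Of the tested genes, 20 on each side of the stretch from Ndufs5 to Rhbdl2 and 10 on each side of Zcchc17 were taken in map order. Among these 60, Gm12904 was the only gene that passed in R245W against p53 het. It was also the only gene with R245W below all 15 other tumours, beside 0.441% of all genes. None of the 60 had R245W above all 15. The Gm12904 call rests on low counts, with no count in R245W. No flanking gene passed in limma voom, within titles with a serial number or without R245W 2, and 3 did in DESeq2. With DESeq2 size factors or without the low-count filter, as many flanking genes passed as in the main fit. The median log2 fold of the 60 was -0.20, and it is the same with Gm12904 set at its bound. It was -0.25 over 1180 tested genes of chromosome 4 and -0.04 over all 20616. The chromosome as a whole thus lay somewhat low in R245W against p53 het. A low median of the 60 was not particular to R245W: against p53 het it was -0.26 in R270H and 0.03 in R172H. In R245W, 4 genes of the chromosome passed, beside 0.0728% of all genes. They were Gm12904 and the 3 for which the stretch was chosen, Ndufs5, Rhbdl2 and Zcchc17.

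The nearest tested gene before Ndufs5 outside the 7, the antisense transcript Gm12925, stood at a log2 fold of 0.00 ± 0.51. The nearest past Rhbdl2, the antisense transcript 1700121C08Rik, was at -0.81 ± 0.95, at under 1 CPM. Beside Zcchc17, Snrnp40, which encodes a spliceosome protein, was at -0.22 ± 0.21. In windows of 21 neighbouring tested genes the median log2 fold was -0.34 around Ndufs5, -0.16 around Rhbdl2 and -0.18 around Zcchc17. Windows along the chromosome ran from -1.08 to 0.33, and 304 of 1160 were lower than the one around Ndufs5.

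Among the 40 genes around Ndufs5 and Rhbdl2, the snoRNA genes Gm25788 and Gm22154, on the far side of Macf1, also had low fitted folds in R245W, -2.39 ± 0.70 and -3.71 ± 1.07, which did not pass (adjusted p = 0.206 for both, edgeR). They were low in R172H as well: Gm22154 fell by 4.66 on the log2 scale against p53 het (adjusted p = 0.0492, edgeR), where 0.0728% of all genes passed. In DESeq2 2 flanking genes passed in that contrast, and none did in limma voom, without the low-count filter or without p53 het 4. Both snoRNA genes were higher in R270H than in R172H, where 5.25% of all genes passed. Gm25788 was higher by 2.02 ± 0.52 (adjusted p = 0.0342, edgeR) and Gm22154 by 3.38 ± 0.79 (adjusted p = 0.0238, edgeR). Their pattern was thus not that of Ndufs5 and Rhbdl2. Fhl3, which encodes a LIM-domain protein, was the other flanking gene that passed in R270H against R172H, at -1.01 ± 0.21 (adjusted p = 0.0155). Oxct2a was the only flanking gene with all R245W tumours above all p53 het tumours, at a log2 fold of 1.18 ± 0.67. The share of all genes with R245W above p53 het is not given here, so nothing is read from that count.

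**Figure D3:**
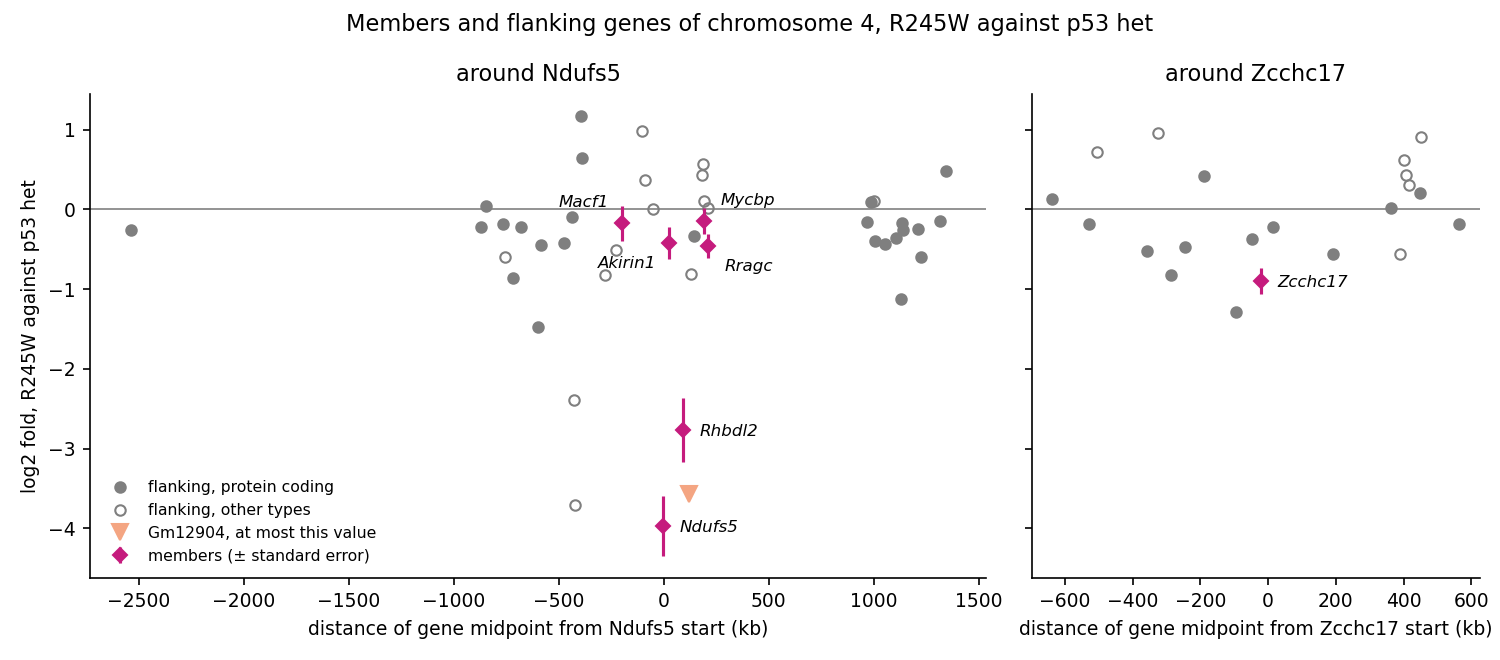
Log2 fold of R245W against p53 het (vertical axis) against the distance of each gene's midpoint from the start of Ndufs5 (left) or Zcchc17 (right) in kb; diamonds are the 7 genes with their standard error, filled circles are flanking protein-coding genes, open circles are other flanking genes, and the triangle is the upper bound for Gm12904. Ndufs5, Rhbdl2 and Gm12904 lie far below Akirin1, Mycbp, Rragc and Macf1, which surround them. The snoRNA genes Gm22154 (-3.71) and Gm25788 (-2.39), open circles on the far side of Macf1, also lie low.

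Among the tumours outside R245W, tests are possible, though R172H against p53 het and R270H against p53 het share the p53 het libraries with the contrast that chose the genes. None of the 7 passed in R172H against p53 het, where 0.0728% of all genes did, or in R270H against p53 het, where 0% did (2354 of 20616 at an unadjusted p under 0.05, and 329 passed in DESeq2). The lowest adjusted p was that of Zcchc17 in R172H against p53 het, at -0.48 ± 0.13 (adjusted p = 0.167 in edgeR). It was 0.013 in DESeq2, and ranged from 0.013 to 0.806 over all alternatives. Rhbdl2 was at -0.46 ± 0.30 in R172H and -0.35 ± 0.31 in R270H against p53 het (adjusted p = 0.564 and 0.719). Ndufs5 was at 0.23 ± 0.26 in R172H and -0.02 without p53 het 4.

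R270H against R172H compares no library of the contrast that chose the genes, though all 18 tumours set the spread in the shared fit. Here 5.25% of all genes passed, and 2.87% had all R270H tumours below all R172H tumours. Ndufs5 was 1 of those without overlap (10.1 to 15.7 against 18.7 to 23.6 CPM), with a log2 fold of -0.71 ± 0.25 (adjusted p = 0.101 in edgeR). It passed in DESeq2 (adjusted p = 0.0456), in limma voom (0.0198) and without p53 het 4 (0.036). Over the alternatives without the copy's counts, Ndufs5 had adjusted p from 0.0198 to 0.194. With the copy's counts added it fell by 0.72 ± 0.13 (adjusted p = 0.0107, in edgeR), lower in 5 of 5 R270H tumours than in every R172H tumour. That value passed in all 18 fits that each left out 1 library (adjusted p from 0.00754 to 0.0298). The other 6 genes did not pass: Zcchc17 was at 0.25 ± 0.12, Macf1 at 0.22 ± 0.17, Akirin1 at 0.21 ± 0.16, Rhbdl2 at 0.10 ± 0.28, Rragc at 0.04 ± 0.12 and Mycbp at -0.19 ± 0.13.

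R172H titles carry a serial number and R270H titles do not, so genotype and kind of title cannot be told apart in that comparison. The titles of p53 het 3 and 4 also lack a serial number, but all R270H titles share a tag that no other title carries. That tag cannot be told apart from the genotype. The sums of Ndufs5 and BC002163 in p53 het 3 and 4 (19.0 and 20.6 CPM) lay above all 5 R270H tumours. Fitted against all 4 p53 het tumours the sum was at -0.70 ± 0.14 in R270H (adjusted p = 0.115 in edgeR, 7.26e-05 in DESeq2). Within titles that lack a serial number it was at -0.65 ± 0.22 (adjusted p = 0.532, edgeR, 2 against 5 tumours).

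**Figure D4:**
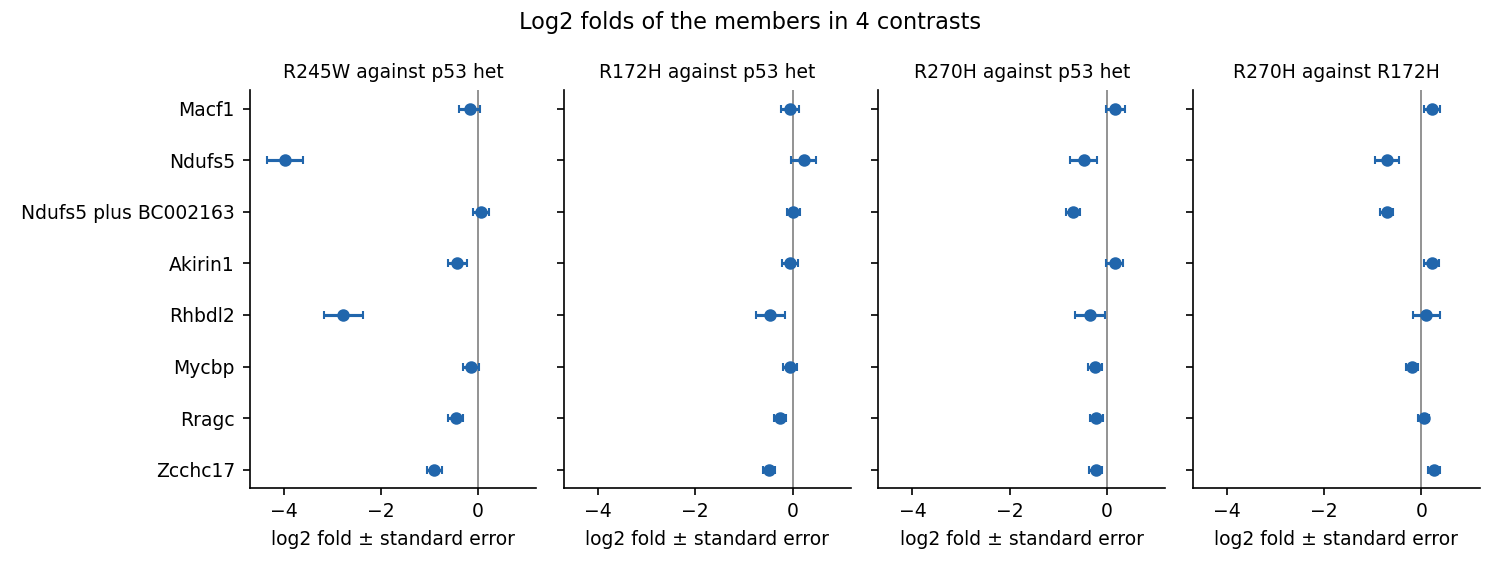
Log2 fold (horizontal axis) with its standard error for the 7 genes and for the sum of Ndufs5 and BC002163 in 4 contrasts. Ndufs5 at -3.97 for R245W against p53 het moves to 0.06 once the copy is added, and the sum stays below 0 in both R270H panels.

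Cell line 14 has 1 library for each condition, so its values have no replicate check. The siRNA library had 30.6 CPM of Trp53 and the control 94.9 CPM. Ndufs5 stood at 2.64 CPM in the control (exact 95% Poisson interval 2.25 to 3.07) and at 2.48 CPM with siRNA (2.13 to 2.87). The copy BC002163 stood at 30.5 and 36.7 CPM, so that 92% and 93.7% of the reads of both were on the copy. The line thus had the split of the R245W tumours, at a higher sum of 33.1 and 39.2 CPM.

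Rhbdl2 was low in the line, at 0.328 CPM in the control (interval 0.203 to 0.501) and 0.204 CPM with siRNA (0.115 to 0.337). Gm12904 had 1 count in each library. Rhbdl2 was thus below all 18 tumours, and Gm12904 below every tumour outside R245W. Zcchc17, in contrast, stood at 43.5 and 49.8 CPM in the line, above all 18 tumours. Akirin1 (111 and 101 CPM) and Rragc (137 and 118 CPM) were also above all tumours, Mycbp (20.01 and 20.5 CPM) was among them, and Macf1 was below every tumour with siRNA (548 CPM) and below every tumour but R245W 2 in the control (624 CPM).

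Between siRNA and control, the log2 ratio of CPM plus 1 was -0.06 for Ndufs5, -0.14 for Rhbdl2, -0.14 for Akirin1, 0.04 for Mycbp, -0.22 for Rragc, -0.19 for Macf1 and 0.19 for Zcchc17. The ratio of the sum of Ndufs5 and BC002163 was 0.24. For Ndufs5, Rhbdl2 and Mycbp the 95% counting interval of the log2 ratio of CPM, with nothing added, included 0, and for Ndufs5 it ran from -0.40 to 0.22. The ratio for Trp53 was -1.60.

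The genes most like Ndufs5 over the 18 tumours, by Pearson's r of log2 CPM, were Gm26510 (0.89), Rhbdl2 (0.86), AI506816 (0.85), Gm12904 (0.84) and Tmem221 (0.84). Those most like Rhbdl2 were Pgap1 (0.93), 2610507I01Rik (0.88), Gm12904 (0.88), Tmem241 (0.87) and Ndufs5 (0.86). Akirin1 reached 0.48 with Ndufs5 and 0.61 with Rhbdl2, and BC002163 reached -0.86 with Ndufs5. These values rest on the R245W tumours, which chose the genes.

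Over the 15 other tumours, the r of Ndufs5 and Rhbdl2 was 0.00. There the 4 genes most like Ndufs5 were Ddt (0.92), Rsu1 (0.90), Cmtm3 (0.89) and Arsa (0.89), none of them on chromosome 4. Those most like Rhbdl2 were Slc8a3 (0.89), Sall2 (0.86), Tmem110 (0.84), Mapk8 (0.83) and Gm16170 (0.82). Gm12904 still reached 0.65 with Rhbdl2. All points share the genotype groups and library depth, and r is given as a description.

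Complex I is built from subunits of both genomes, and of 35 further nuclear subunits tested none passed in R245W against p53 het (7 at an unadjusted p under 0.05, beside 2551 of all 20616 genes). Their median log2 fold was -0.32, with Ndufa3 at -1.16 ± 0.30 and Ndufa2 at -1.75 ± 0.54 the lowest p. In R172H against p53 het the median was -0.37 and none passed (16 at an unadjusted p under 0.05, beside 2512 of all 20616 genes), and in R270H it was -0.09. Between R270H and R172H, 4 of 35 passed, all higher in R270H, beside 5.25% of all genes: Ndufs4 by 1.18 ± 0.26, Ndufa2 by 1.67 ± 0.41, Ndufb9 by 2.21 ± 0.60 and Ndufc2 by 0.84 ± 0.24 on the log2 scale (adjusted p from 0.0178 to 0.0469, edgeR). The sum of Ndufs5 and BC002163 was lower in R270H in that contrast, the opposite direction. Of 14 assembly factors none passed for R245W (median -0.34), with Ndufaf3 at -0.89 ± 0.32 and Foxred1 at -0.74 ± 0.28. Ndufaf8 was higher in R270H than in R172H by 1.08 ± 0.31 (adjusted p = 0.0496).

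The 3 genes of the import path for twin CX9C proteins did not pass in any of the 4 contrasts, where 0% to 5.25% of all genes did. In R245W against p53 het, Chchd4, the oxidoreductase that traps these proteins, was at 0.26 ± 0.35. Gfer, which reoxidises Chchd4, was at -0.12 ± 0.27 in that contrast. Of 8 other rhomboid family genes none passed there, beside 0.0728% of all genes. Their median was 0.18, with Rhbdd2 at 0.44 ± 0.28 and Rhbdl1 at 0.36 ± 0.49. Between R270H and R172H, 5.25% of all genes passed. Rhbdf2, an inactive rhomboid that guides a shedding protease, was lower in R270H, at a log2 fold of -1.16 ± 0.30 (adjusted p = 0.0346, edgeR). Parl, the mitochondrial rhomboid, was higher by 0.62 ± 0.17 (adjusted p = 0.0439, edgeR). Of 6 reported substrates of the Rhbdl2 protease none passed in any of the 4 contrasts, where 0% to 5.25% of all genes did. For R245W, Clec14a, an endothelial receptor, was at -0.69 ± 0.46 and Efnb3, an ephrin, at 0.61 ± 0.62.

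Partners of the neighbours gave no call in R245W against p53 het, where 0.0728% of all genes passed. The absence of a call thus says little about them. Of 16 genes of the Rag GTPases, Ragulator and mTORC1 the median was -0.15, with Lamtor4 at -0.70 ± 0.25 and Rraga at -0.48 ± 0.20. Of 6 partners of Akirin and MYC the median was 0.01, with Myc at 1.74 ± 0.45 (adjusted p = 0.176, edgeR) and Mycbpap at -1.15 ± 0.80. Of 6 spectraplakins and microtubule plus-end partners the median was 0.10, with Mapre3 at 0.89 ± 0.27 and Plec at 0.62 ± 0.35. The median over all genes was -0.04 in that contrast, -0.02 in R172H and -0.01 in R270H against p53 het.

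Total counts ran from 20136957 to 29211623 per tumour, and a count of 3 was worth 0.103 to 0.149 CPM. The p53 het tumours had 20.2 ± 5.75 CPM of Trp53 (SD, n = 4) and the R245W tumours 64.5 ± 8.53 (n = 3). The R172H tumours had 50.6 ± 13.5 CPM (n = 6) and the R270H tumours 36.8 ± 11.9 (n = 5). All 12 osteoblast and osteocyte markers were detected in each genotype. Their sum ran from 34240 to 117800 CPM in R245W and from 58400 to 135500 in p53 het. In R172H it ran from 34920 to 120100 CPM and in R270H from 46450 to 122000. A summed set of 8 fibroblast markers ran from 721 to 2518 CPM in R245W, from 2899 to 8376 in p53 het, from 1758 to 12690 in R172H and from 1526 to 6626 in R270H. A set of 8 T and NK cell markers ran from 1.55 to 16.6 CPM in R245W and from 5.42 to 89.8 in the rest, and 8 epidermal markers from 5.74 to 7.35 against 3.79 to 389.5, with 1 of the 8 at 0 in all R245W tumours. Sums of macrophage (1727 to 1980 CPM), endothelial (334 to 530 CPM), skeletal muscle (29.7 to 456 CPM) and erythroid markers (138 to 773 CPM) in R245W lay within the range of the other tumours. Fewer cells of a type and less RNA per cell cannot be told apart in such samples, and the part of these sets in the levels of Rhbdl2 and Zcchc17 was not tested.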

How the data were processed

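The deposited table holds raw counts per gene, 1 column for each of the 20 libraries. Per the submitters' processing notes, the authors aligned reads to GRCm38 with STAR 2.6.0b. The counting program, its annotation, its strand setting and its treatment of reads that fit several places are not given in the sources used here. Of 49585 IDs, 49326 matched a gene of GENCODE M21, which gave symbols, positions and transcripts.

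Tumour counts were fitted in R 4.3.3 with edgeR 4.0.16: filterByExpr by genotype (minimum count 10, minimum total 15; 20616 genes left), TMM scaling and 1 robust quasi-likelihood model over the 18 tumours. p-values were adjusted by Benjamini-Hochberg within a contrast at a threshold of 0.05, and rest on how tumours of 1 genotype differ; the labels do not say that each tumour is from a separate mouse. Standard errors are the log2 fold over the square root of F. CPM use the library total; correlations use log2 CPM with a prior count of 2. Line ratios use CPM plus 1, with exact Poisson intervals at 95%.

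The members and gene lists were chosen with earlier results of these data known. Named were all 7 members in every library, flanking genes that passed or did not overlap for R245W, the nearest on each side, copies of members, the 5 genes most like Ndufs5 and Rhbdl2 (1 is not reported here), and list genes that passed or had the 2 lowest p in R245W against p53 het. Alternatives were DESeq2 1.42.0, its size factors, no low-count filter, limma 3.58.1 voom with quality weights, only libraries with 1 kind of title, leaving out each library, other pseudocounts and TMM for the line. Summing Ndufs5 and BC002163 and all settings of that sum and of BC002163 were chosen after seeing the data. The fit was tested on simulated data.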

Additional observations from a re-analysis of the deposited data

Results flagged for a closer look

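In the p53 het group, Ndufs5 was at 7.91 CPM in library 4, far below the other 3 libraries (18.6 to 19.1 CPM). In the same library BC002163 was at 12.7 CPM, far above the other 3 (0.0736 to 0.307 CPM). Each gap took up more of the range of the 4 libraries than Dixon's limit at 95% allows. Of 27 groups of values examined, 2 were marked in this way, and chance marks about 1 in 20. The sum of both genes in that library, 20.6 CPM, was not marked.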

How the results depend on the processing

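Of the single log2 folds under alternatives, 781 kept direction and side of the threshold, or for R245W stayed within the spread between tumours, 20 turned, 6 came to pass and 3 moved further. With DESeq2, genes passing numbered 371 for R245W, 307 for R172H and 329 for R270H against p53 het and 2243 for R270H against R172H, and flanking genes 3, 2, 1 and 5. With limma voom, genes were 0 for R172H and 1 for R270H against p53 het and 2294 for R270H against R172H, and flanking genes 0 for R245W, 0 for R172H and 8 for R270H against R172H. Without the low-count filter, R172H had 1 gene and 0 flanking genes, and R270H against R172H had 545 and 1. Within a kind of title, R245W had 3 and 0, R172H 5 and 0, and R270H 2 genes. There, folds for R172H against p53 het turned to -0.055 for Ndufs5, 0.069 for Mycbp, 0.025 for Macf1, 1.503 for BC002163 and -0.035 for the sum, and Rhbdl2 for R270H to 0.063. With its copy added, Ndufs5 in R245W turned to 0.060.

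Leaving out 1 library gave 5 (without R245W 1) to 29 genes (without p53 het 1) for R245W, 0 (without p53 het 4) to 166 (without p53 het 1) for R172H, 0 to 21 (without p53 het 3) for R270H and 454 (without R172H 3) to 1337 for R270H against R172H, and 0 to 1, 0 to 2, 0 to 0 and 1 to 4 flanking genes. For R172H against p53 het, folds ran from -0.025 to 0.37 for Ndufs5, -0.13 to 0.041 for Akirin1, -0.093 to 0.057 for Mycbp, -0.092 to 0.014 for Macf1, -3.28 to 1.04 for BC002163 and -0.0089 to 0.057 for the sum. For R270H against R172H they ran from -0.039 to 0.29 for Rhbdl2 and -0.028 to 0.082 for Rragc. For R245W, the contrast that chose the genes, Rhbdl2 fell short of the threshold without R245W 1 or R245W 2, and Zcchc17 met it in only 4 of these 18 fits. The causes were not tested. No paired analysis was possible because the replicate numbers follow accession order. Depth limits Gm12904 and BC002163 outside R245W, at few counts.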

Other observations

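The tested genes with the lowest r over the 18 tumours, looked up after the values were seen, were processed pseudogenes high in R245W and in cell line 14. For Ndufs5 it was Rpl3-ps1 on the X chromosome (r = -0.95), at 71.4 to 113.1 CPM in R245W, 123 and 135 CPM in the line and 0.372 to 2.11 CPM in the 15 other tumours. For Rhbdl2 it was Gm6969 on chromosome 12 (r = -0.88), at 48.4 to 79.4 CPM in R245W, 49.3 and 53.4 CPM in the line and 0 to 0.698 CPM in the others. Ndufs5 and Rhbdl2 were low in R245W, so the lowest r picks genes that are high there. The tumour values of these pseudogenes thus describe the choice, while the cell line did not enter r. In p53 het 4, where BC002163 was high, Rpl3-ps1 stood at 1.78 CPM and Gm6969 at 0.342 CPM, like the other tumours. Gm26510, a long noncoding RNA gene of chromosome 17 and the gene most like Ndufs5, stood at 0.669 to 1.21 CPM in R245W, 0.718 and 0.532 CPM in the line and 2.84 to 14.7 CPM in the other tumours.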
